A study of Homo sapiens with 12 samples.

Results

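A group of 157 abundant transcripts known only by the name of a genomic clone was followed in OCI-LY1 lymphoma cells that had or had not become resistant to venetoclax, with and without decitabine. They are the features whose name is a clone name (AC, AL or AP, 6 digits and a version number) and whose mean was at least 300 TPM (a level per transcript length, scaled so that each library sums to 1000000) over 11 of the 12 libraries. These were 157 of 60656 listed features and 20218 clone-named ones, and 4 others of that level were left out by the rule. The features were chosen by their mean TPM over those 11 libraries, so their abundance there is a description and not a finding. Just inside the limit stood AL451165.2, AC113208.4 and AP001010.1 at 301, 303 and 305 TPM, and just outside it AC139530.1, AC109587.1 and AC015795.1 at 297, 296 and 292 TPM.

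OCI-LY1 is a line from human diffuse large B-cell lymphoma, and its venetoclax-resistant derivative, OCI-LY1R, was selected in increasing venetoclax up to 1 µM. The 4 groups were resistant cells with 1 µM decitabine, a hypomethylating nucleoside, for 3 days, resistant cells with DMSO vehicle, parental cells with the same decitabine treatment, and parental cells with DMSO vehicle, with 3 libraries each. Polyadenylated RNA was made into stranded libraries and sequenced on the DNBSEQ platform. Nothing in the labels says whether libraries of a group came from separate cultures, so each p reflects only how libraries of a group vary, which may be technical. Each line is a single line, and the sources used here do not say whether the resistant cells were a clone. Libraries of the resistant cells could be matched to their group only and are called a, b and c.

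Clone names are given to transcribed regions with no gene symbol, and many of them are long noncoding RNAs read from the strand opposite a coding gene. Such an antisense transcript shares its bases with the complement of the gene's own RNA, so an assignment of reads to one or the other rests on the strand recorded for each read. In a stranded library that record depends on the protocol and on the strand setting used for quantification, which is not given in the sources used here.

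Replicate 3 of parental decitabine stood apart from the other 11 libraries, and the features chosen took 0.0113% of its TPM, against 21.1% to 28.5% in the others. It listed 13628 features at 1 TPM or more, against 7078 to 9038 in the 11. Germinal-centre B-cell markers summed to 4359 TPM over all 10 genes in replicate 3 and to 37.4 to 199.8 TPM in the 11, where the labelled cell type is therefore carried by few TPM. All 3 erythroid markers were at 0 in the 11, as were 3 of 4 T-cell, 1 of 3 myeloid, 2 of 3 fibroblast and 1 of 3 epithelial markers. The sums of those 5 lists over the 11 libraries ranged from 0 up to 22.4 TPM, the highest being epithelial in resistant decitabine, against 34.8 TPM of epithelial markers in replicate 3. The part of the strand assignment in this difference was not tested. Depth is unknown from TPM, so no counting intervals are given, and an exact 0 means listed at 0.

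GENCODE 29 (GRCh38) holds 146 of the 157 features. Of them, 134 overlap an exon of a protein-coding gene on the other strand, 131 distinct genes in all. A further 4 lie opposite another feature, and 8 have no exon opposite them. In median, 91.3% of exon length lay opposite the coding gene (lowest 4.28%), and 75 features had at least 80% there. Some described below had far less, among them AC114947.2 (28.2%), AC023510.1 (27.6%), AC016727.1 (25.2%) and AC011450.1 (21.5%). Coding sequence lay opposite 90 of the 134. The annotation calls 117 antisense, and chromosomes 19, 17 and 16 carry 26, 19 and 18. Exon length had a median of 590.5 bases and ran from 156 to 11692. Names were used throughout. In the parental table the identifier beside the name belonged to the same name for 132 of the 157, to another name for 17, and was not in GENCODE 29 for 8. Among those described here, AC011603.3, AC005726.3, AP001610.2, AC008750.3, AL583722.1 and AC113208.4 carry the identifier of a neighbouring number of their clone, so their position rests on the name alone. The same holds for the feature counted below as opposite TUBB4A, and for others of the 17 that the counts above place opposite a coding gene.

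The base pairing that places these features opposite genes is shown for 3 that changed between groups and lie opposite coding sequence. AC023510.1 lies opposite LRMP (IRAG2 in the tables), and its stretch at chr12:25096890-25097063, minus strand, is printed with the LRMP stretch at chr12:25096910-25097044, plus strand. For AL355075.3 and PNP the stretch is chr14:20474789-20474938, minus and plus strand. For AC027682.2 and RIPOR1 it is chr16:67542123-67542272, minus and plus strand. All are from GENCODE 29 transcripts on GRCh38, written 5′ to 3′, and capitals mark bases that lie opposite, or belong to, coding sequence of the gene.
AC023510.1: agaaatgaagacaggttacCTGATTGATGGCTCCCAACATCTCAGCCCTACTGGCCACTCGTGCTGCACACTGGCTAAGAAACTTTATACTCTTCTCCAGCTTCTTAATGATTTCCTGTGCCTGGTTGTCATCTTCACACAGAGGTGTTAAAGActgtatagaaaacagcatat
LRMP: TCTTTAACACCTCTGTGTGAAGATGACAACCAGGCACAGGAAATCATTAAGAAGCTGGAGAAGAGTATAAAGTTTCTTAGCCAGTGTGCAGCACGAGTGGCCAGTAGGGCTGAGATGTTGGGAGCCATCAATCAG
AL355075.3: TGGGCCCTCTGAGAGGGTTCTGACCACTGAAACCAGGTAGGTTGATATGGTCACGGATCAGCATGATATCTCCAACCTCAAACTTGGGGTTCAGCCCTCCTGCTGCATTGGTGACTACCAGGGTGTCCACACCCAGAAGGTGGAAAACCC
PNP: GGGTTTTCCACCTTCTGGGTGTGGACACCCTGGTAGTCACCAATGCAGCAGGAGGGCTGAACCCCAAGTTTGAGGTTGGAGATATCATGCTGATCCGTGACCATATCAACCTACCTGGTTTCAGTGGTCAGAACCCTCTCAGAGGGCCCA
AC027682.2: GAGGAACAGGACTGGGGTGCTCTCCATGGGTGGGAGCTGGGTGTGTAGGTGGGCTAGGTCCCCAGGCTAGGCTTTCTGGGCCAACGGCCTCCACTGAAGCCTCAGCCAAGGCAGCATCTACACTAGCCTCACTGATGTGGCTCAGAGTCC
RIPOR1: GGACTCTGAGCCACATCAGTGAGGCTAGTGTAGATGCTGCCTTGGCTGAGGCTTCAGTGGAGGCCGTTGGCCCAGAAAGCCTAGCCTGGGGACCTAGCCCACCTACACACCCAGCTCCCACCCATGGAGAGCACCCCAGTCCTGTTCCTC

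The features spanned more than 2 orders of magnitude, and 1 of them far exceeded the rest. AC011603.3, opposite DDN, which encodes the podocyte and brain protein dendrin, averaged 59075 TPM over the 11 libraries. DDN itself was at 5.10 TPM in replicate 3 and averaged 11.5 TPM in the 11. If the position taken from the name AC011603.3 holds, the gene opposite the most abundant feature was not abundant in any library. Next came AC093484.3 at 17323 TPM, opposite the polyubiquitin gene UBB, and AL138963.3 at 13774 TPM, opposite TPT1, the translationally controlled tumour protein. AC145207.2, opposite the GDP-dissociation inhibitor gene ARHGDIA, averaged 7036 TPM. AC018761.2, opposite the peroxidase PRDX2, averaged 6436 TPM. Ribosomal protein genes followed, with AP003352.1 opposite RPL30 at 5109 TPM and AC010761.1 opposite RPL23A at 4229 TPM. AC112491.1, opposite the pseudogene RPL23AP42, averaged 3826 TPM. AC011558.1, opposite the actin-binding CNN2, averaged 4773 TPM, and AC005944.1, opposite the Groucho-family corepressor TLE5 (AES in GENCODE 29), averaged 3729 TPM. The median of all 157 means was 527 TPM.

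Roles of the opposite genes were counted from 11 lists of cell functions. Of the 157 features, 21 lie opposite a listed gene. The cytoskeleton list had 4 (opposite TUBB, TUBA1C, TUBB4A and CORO1A). The cytosolic ribosome (RPL30 and RPL23A), translation factors (TPT1 and EIF4B) and chaperones (P4HB and HYOU1) had 2 each. B-cell identity, glycolysis, chromatin, mitochondrial respiration and nucleotide metabolism had 1 each, opposite CD37, ALDOA, MCM2, PHB and IMPDH2. These genes are named because they are members of those lists, and their features' values were known when the lists were written.

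In replicate 3, which the choice of features did not use, the feature and the gene opposite it stood the other way round. Of the 157 features, 75 were listed at 0 there and 136 were under 1 TPM, and the highest was AC011603.3 at 35.1 TPM. For 133 of the 134 features opposite a coding gene, the gene was above its feature in replicate 3. In the means of the 11 libraries the gene was below its feature for 130 of 134, where a floor of 300 TPM on the feature fixes much of the order. The 4 exceptions, named after their values were seen, were CD37, PTOV1, PSMD7 and ALDOA. Opposite genes had a median of 81.3 TPM in replicate 3 and of 31.3 TPM in the 11, and 107 of 134 were higher in replicate 3 than in their mean of the 11. The same count over all coding genes is not given, and replicate 3 listed more features at 1 TPM or more than any other library. Whether such a rise is particular to the opposite genes was therefore not tested. In replicate 3, 57 of the 131 distinct genes (43.5%) exceeded 100 TPM, against 1079 of 19486 coding genes (5.54%).

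**Figure D1:**
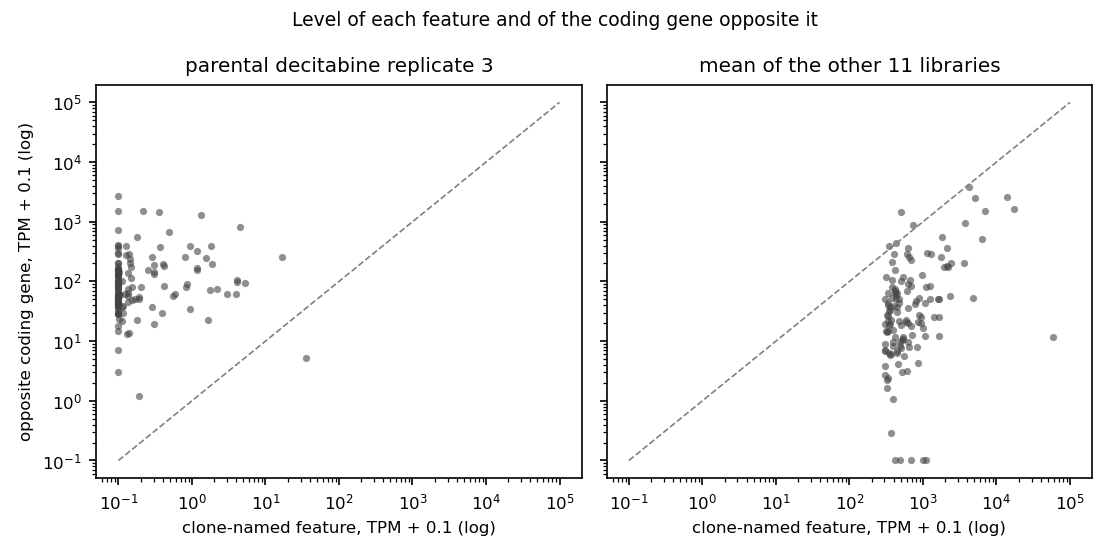
Each point is 1 clone-named feature and the coding gene opposite it, in TPM plus 0.1 on log axes, in parental decitabine replicate 3 (left) and as the mean of the other 11 libraries (right). The dashed line marks equal levels, and 133 of 134 points lie above it in replicate 3 while 130 of 134 lie below it in the 11.

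AC023510.1, with 27.6% of its exon length opposite IRAG2, is an example. It was listed at 0 TPM in replicate 3, where IRAG2 was at 203 TPM, and averaged 839.6 TPM in the 11, where IRAG2 was listed at 0 in 10 libraries and at 85.6 TPM in resistant decitabine library c. AC125257.2, opposite ACLY, which makes cytosolic acetyl-CoA from citrate, was listed at 0 in replicate 3 beside ACLY at 124 TPM. It averaged 1663 TPM in the 11, where ACLY ranged from 0 to 48.3 TPM. Genes listed at 0 in all 11 libraries were UBE4A, OVCA2, MRPS11, HSD17B12 and HMGCS1, named after their values were seen, and they were at 17.9 to 63.3 TPM in replicate 3. Across the 134 pairs, the level of the feature in the 11 and of its gene in replicate 3 had a Spearman correlation of 0.52, and 0.60 over the 75 with at least 80% of their exons opposite. Both are descriptions across features, whose points share libraries and base composition, and the 11-library mean is truncated at 300 TPM.

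**Figure D2:**
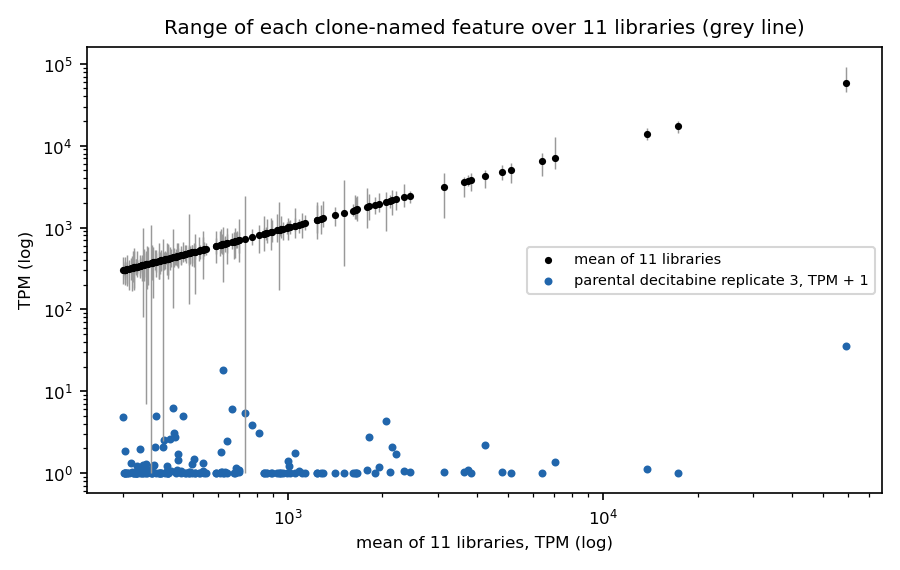
For each of the 157 features the grey line spans the lowest to the highest TPM of 11 libraries (values under 1 drawn at 1), the black point is their mean, and the blue point is parental decitabine replicate 3 as TPM plus 1, all on log axes. The highest blue point stands for 35.1 TPM, and most grey lines are short, with a median ratio of highest to lowest library of 1.83.

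Among the 11 libraries most features varied little. The ratio of the highest to the lowest library was under 2 for 103 features and at least 4 for 10, with a median of 1.83 over those never listed at 0. Only AC011450.1 and AC008750.3 were listed at 0 in any of the 11. AC011450.1, opposite the B-cell tetraspanin CD37, had 1134, 0 and 1125 TPM in resistant decitabine, 0, 0 and 0 TPM in resistant vehicle, 1548 and 1552 TPM in parental decitabine and 2443, 246 and 0 TPM in parental vehicle. Resistant decitabine and parental vehicle each held both a 0 and a value at least as high as 1125 TPM, and CD37 was above 300 TPM in every library. AC008750.3 lies opposite VSIG10L by the position taken from its name. It had 0, 606 and 0 TPM in resistant decitabine and 0, 732 and 620.2 TPM in resistant vehicle. In parental decitabine it had 0 and 0 TPM, and in parental vehicle 1005, 1077 and 0 TPM. Values of 0 stood beside high ones, so no fold is given for either. They were also the 2 features whose value in replicate 3 was not below their lowest other library.

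The 4 groups were compared with one limma fit of log2(TPM + 1) over the 11 libraries, in which 8505 features, all 157 among them, had a mean of at least 1 TPM. A called feature is one with an adjusted p under 0.05 over all 8505. Since the fit leaves out replicate 3, parental decitabine has 2 libraries. Groups did not overlap for 27.9% of all features tested and 46.5% of the 157 in resistant decitabine against vehicle. The shares were 38.1% and 55.4% in parental decitabine against vehicle, 26.3% and 50.3% between vehicle groups and 32.1% and 48.4% between decitabine groups. Among the other 187 features at or above 300 TPM, the shares were 40.1%, 55.1%, 41.2% and 29.4% in the same order. The differences between these sets were not tested. Non-overlap alone was therefore common. With replicate 3 in the fit, limma called 0 of the 157 in each comparison, and at an unadjusted p under 0.05 it passed 1 in parental decitabine against vehicle, 1 in resistant against parental decitabine and 0 in the other 3. That fit called hardly any feature at all, at most 4 higher and 2 lower of 12706 tested in any comparison.

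In resistant cells more of these features fell than rose with decitabine. Against vehicle, 9 rose and 23 fell, 32 of 157, beside 7.77% of all features tested called in either direction. Over all features 5.7% rose and 2.07% fell, so the balance among the 157 ran the other way. Their median log2 fold change was -0.13, and that of all features tested was 0.18. The balance moved with the scaling, as median-ratio scaling called 6 higher and 34 lower and quantile scaling 19 higher and 17 lower. Over all 8505 features, median-ratio scaling called 401 higher and 288 lower and quantile scaling 315 higher and 253 lower. Without resistant decitabine library a the calls among the 157 were 20, and without library c 21. Of the other 187 features at or above 300 TPM, a set added after the data were seen, 19 rose (10.2%) and 17 fell (9.09%), with a median log2 fold change of -0.15. The negative median was therefore shared by features of similar abundance, and the difference between the 2 sets was not tested. In parental cells the medians were -0.058 for the 157 and -0.046 for the 187.

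The largest falls with a gene opposite were those beside PNP, HMGCS1, AMPD2, IRAG2 and PA2G4. AL355075.3, opposite PNP, the purine nucleoside phosphorylase, had 227, 259.6 and 227 TPM in resistant decitabine libraries, against 487, 589 and 621 TPM in resistant vehicle libraries. The groups did not overlap (log2 fold change -1.24 ± 0.11 (SE), limma adjusted p = 0.000519). AC023510.1, opposite IRAG2, an endoplasmic reticulum protein of lymphoid cells, had 691, 738 and 721 TPM under decitabine and 1401, 1336 and 1352 TPM under vehicle. Every decitabine value lay far below every vehicle value (log2 fold change -0.93 ± 0.095 (SE), limma adjusted p = 0.00104). AC114947.2, opposite HMGCS1, a cholesterol synthesis enzyme, had 234, 289 and 289 TPM under decitabine and 493, 596 and 626 TPM under vehicle, again without overlap (log2 fold change -1.07 ± 0.14 (SE), limma adjusted p = 0.00256).

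AC125257.2, opposite ACLY, had 1196, 1261 and 1454 TPM under decitabine and 2061, 2377 and 2432 TPM under vehicle in resistant cells. The highest decitabine value stayed below the lowest vehicle value (log2 fold change -0.81 ± 0.095 (SE), limma adjusted p = 0.00186). AC034102.4, opposite the growth-linked RNA-binding protein PA2G4, averaged 889 ± 52.6 TPM under decitabine and 1686 ± 308 TPM under vehicle (SD, n = 3 each; log2 fold change -0.91 ± 0.13 (SE), limma adjusted p = 0.00468). AL355310.2, opposite the AMP deaminase gene AMPD2, fell as well (log2 fold change -0.94 ± 0.2 (SE), limma adjusted p = 0.0254), and this call was lost without resistant decitabine library a, b or c, at adjusted p = 0.0778, 0.0608 and 0.0653.

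AC005726.3 fell most, although by the position taken from its name no exon lies opposite it. It had 342, 409.7 and 425 TPM in resistant decitabine libraries and 2124, 1039.5 and 1113 TPM in resistant vehicle libraries (log2 fold change -1.79 ± 0.26 (SE), limma adjusted p = 0.00546). Vehicle library a stood well above the other 2, and the groups did not overlap.

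Rises were fewer and smaller, apart from that of AP001610.2. By the position taken from its name, AP001610.2 is a lincRNA with no exon opposite it. AP001610.2 had 341, 431 and 373 TPM in resistant decitabine libraries, against 117, 169 and 129.7 TPM in resistant vehicle libraries (log2 fold change 1.47 ± 0.16 (SE), limma adjusted p = 0.00134). AL031600.3, opposite CLCN7, a lysosomal chloride transporter, had 749, 760.1 and 703 TPM under decitabine and 436, 484 and 449.8 TPM under vehicle (log2 fold change 0.69 ± 0.086 (SE), limma adjusted p = 0.00252). In both, every decitabine value was above every vehicle value. AP001010.1, opposite LDLRAD4, and AC084125.4, opposite the helicase gene RECQL4, rose by 0.68 each on the log2 scale (adjusted p = 0.0132 and 0.00781, limma). AP003392.3, opposite the chaperone gene HYOU1, and AC010973.2, opposite the anion exchanger gene SLC4A2, rose by 0.61 and 0.53 (limma adjusted p = 0.0378 and 0.0201). Leaving out single libraries ended those last 2 calls. The HYOU1-opposite call was lost without parental vehicle 1, 2 or 3, resistant decitabine a or b, or resistant vehicle a or c (adjusted p 0.0538 to 0.0976), and the SLC4A2-opposite call without resistant decitabine b or c or resistant vehicle a or c (adjusted p 0.0517 to 0.0644). Median-ratio scaling also ended the call of AP003392.3 (adjusted p = 0.0538).

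**Figure D3:**
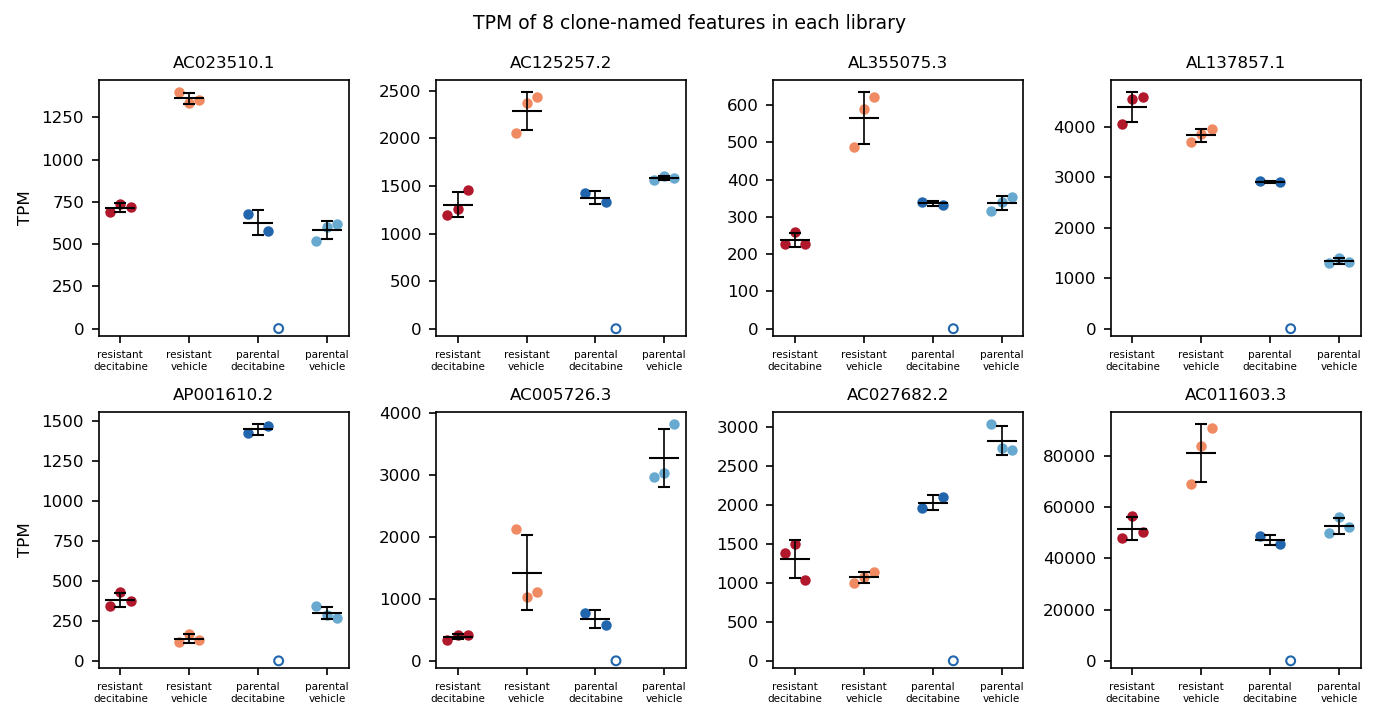
TPM of 8 features in each library, by group, with the mean and SD as a bar and the open circle for parental decitabine replicate 3, which is in neither. AC023510.1, AC125257.2 and AL355075.3 are highest in resistant vehicle, AP001610.2 is highest in parental decitabine, and the open circle lies near 0 in all 8.

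In parental cells, with 2 decitabine libraries in the fit, decitabine against vehicle called 4 of the 157 higher and 3 lower, beside 2.29% of all features tested in either direction, 1.8% higher and 0.494% lower. The median log2 fold change was -0.06 for the 157 and 0.20 for all features. Among the other 187 features at or above 300 TPM, 19 were called (10.2%), 14 higher and 5 lower, against 4.46% of the 157. The difference between the 2 sets was not tested. Median-ratio scaling gave 2 higher and 12 lower of the 157, and quantile scaling 3 higher and 4 lower. Over all 8505 features they gave 103 higher and 95 lower, and 99 higher and 84 lower. AP001610.2 rose most, to 1421 and 1469 TPM in parental decitabine libraries, against 341, 286 and 265 TPM in parental vehicle libraries (log2 fold change 2.28 ± 0.18 (SE), limma adjusted p = 0.000421). Both decitabine libraries stood far above the vehicle ones. AL137857.1, not in GENCODE 29, had 2925 and 2898 TPM in parental decitabine libraries and 1305, 1409 and 1312 TPM in parental vehicle libraries (log2 fold change 1.12 ± 0.079 (SE), limma adjusted p = 0.000315). Neither feature's groups overlapped.

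AC005726.3 fell, with 777 and 571 TPM in parental decitabine libraries and 2968, 3042 and 3826 TPM in parental vehicle libraries (log2 fold change -2.29 ± 0.29 (SE), limma adjusted p = 0.00658). Its call was lost without parental decitabine replicate 2, at adjusted p = 0.0601. The other 4 calls were smaller, AC084024.3 opposite the decapping factor gene LSM1 at 0.94, AC016727.1 opposite the nuclear exporter gene XPO1 at 0.80, AC090948.4 (not in GENCODE 29) at -0.54 and AP003068.1 opposite the tethering factor gene VPS51 at -0.53 on the log2 scale. Each of these 4 was lost without parental decitabine 1 and without parental vehicle 1 or 2. Further single losses were without parental decitabine 2 for all but the XPO1-opposite feature, without parental vehicle 3 for all but the LSM1-opposite one, and without resistant decitabine b or c or resistant vehicle a, b or c for at least 1 of them. Adjusted p over these losses ran from 0.0521 to 0.235. Median-ratio scaling ended the calls of AC084024.3 and AC016727.1 (adjusted p = 0.0666 and 0.077), and quantile scaling that of AC084024.3 (0.0635). The count of calls was 3 without parental decitabine 1 or 2 or parental vehicle 1 or 2, and 4 without parental vehicle 3 or resistant decitabine c. The 2 responses shared 4 called features, AP001610.2 higher and AC005726.3, AC090948.4 and AP003068.1 lower in both lines.

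**Figure D4:**
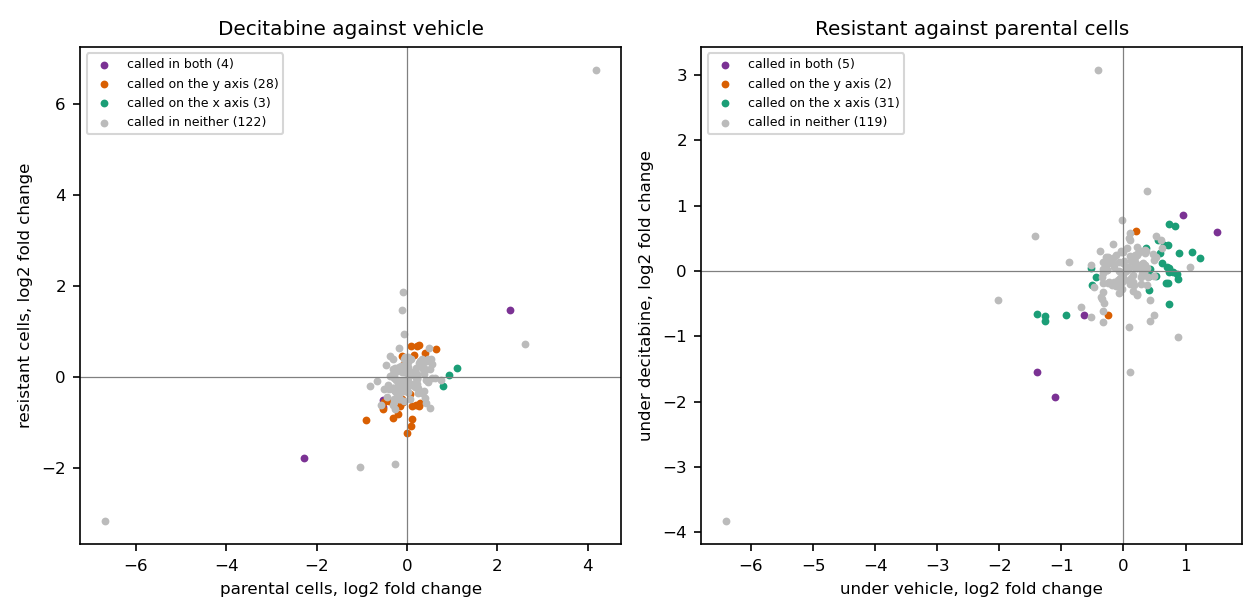
Log2 fold change of each of the 157 features, decitabine against vehicle in parental and resistant cells (left) and resistant against parental cells under vehicle and under decitabine (right), coloured by which of the 2 comparisons called the feature. Of the points, 4 are called in both at left and 5 in both at right, and the most distant grey points are AC011450.1 and AC008750.3, whose libraries include values listed at 0.

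The difference between the responses, resistant minus parental, was tested as an interaction. It called 3 features, all negative, beside 0.364% of all features tested in either direction, 0.188% positive and 0.176% negative. The share called was 1.91% of the 157 and 1.6% of the other 187 features at or above 300 TPM. Quantile scaling called 1 positive and 3 negative of the 157, beside 13 positive and 12 negative of all 8505 features. For AL355075.3 the parental libraries had 341 and 332 TPM with decitabine and 316, 341 and 353 TPM with vehicle, which overlapped, beside the fall in resistant cells given above (difference of log2 fold changes -1.24 ± 0.17 (SE), limma adjusted p = 0.0337). AC023510.1 had 679 and 575 TPM in parental decitabine libraries and 520.5, 604 and 619 TPM in parental vehicle libraries, also overlapping (difference of log2 fold changes -1.04 ± 0.14 (SE), limma adjusted p = 0.0337). Both calls were lost without parental decitabine 1, parental vehicle 1, 2 or 3, resistant decitabine c, or resistant vehicle b or c. The PNP-opposite call was also lost without parental decitabine 2, and the IRAG2-opposite call without resistant decitabine a, with adjusted p from 0.0503 to 0.0711 over both. Without a filter on low values both were lost as well (adjusted p = 0.0581 each), and quantile scaling ended the AC023510.1 call (adjusted p = 0.0809).

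AL137857.1 rose with decitabine in parental cells, as given above. In resistant cells it had 4054, 4542 and 4582 TPM with decitabine and 3693, 3857 and 3946 TPM with vehicle (log2 fold change 0.20 ± 0.071 (SE), limma adjusted p = 0.136), and the difference was -0.92 (limma adjusted p = 0.0154), kept without each of the 11 libraries. For AC125257.2 the difference was -0.61 (limma adjusted p = 0.153), which did not pass. Without resistant vehicle library a 7 features were called, and without parental decitabine 1, parental vehicle 1, 2 or 3, resistant decitabine c or resistant vehicle b or c 1 was.

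Between resistant and parental cells under vehicle, 26 features were higher and 10 lower, 36 of 157, beside 4.97% of all features tested in either direction, 3.41% higher and 1.56% lower. The median log2 fold change was 0.10 for the 157 and 0.08 for all features. Of the other 187 features at or above 300 TPM, 25 were called (13.4%), 18 higher and 7 lower, with a median of 0.20. The share called among the 157 was 22.9%, and the difference between the 2 sets was not tested. Direction among the 157 depended on the scale, with 13 higher and 21 lower under median-ratio scaling and 13 higher and 16 lower under quantile scaling. It turned over all 8505 features too. They had 290 higher and 133 lower in the main fit, 175 and 224 under median-ratio and 158 and 184 under quantile scaling. Without parental vehicle 1, 2 or 3 or resistant vehicle c the calls among the 157 numbered 15, 18, 22 and 18.

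The largest rise was AL137857.1, at 3693, 3857 and 3946 TPM in resistant vehicle libraries and 1305, 1409 and 1312 TPM in parental vehicle libraries (log2 fold change 1.51 ± 0.071 (SE), limma adjusted p = 5.24e-05). AC023510.1 followed, with 1401, 1336 and 1352 TPM in resistant vehicle libraries and 520.5, 604 and 619 TPM in parental vehicle libraries (log2 fold change 1.23 ± 0.095 (SE), limma adjusted p = 0.000432). Resistant vehicle values were more than 2 times the highest parental vehicle value in both. AL589765.7, opposite MRPL9 of the mitochondrial ribosome, averaged 613 ± 40.6 TPM in resistant vehicle and 284 ± 22.0 TPM in parental vehicle (SD, n = 3 each; log2 fold change 1.11 ± 0.11 (SE), limma adjusted p = 0.00103). AL590666.5 (not in GENCODE 29), AL391650.1 opposite ZNF593 and AC016727.1 opposite XPO1 were higher by 0.96, 0.89 and 0.88 on the log2 scale (limma adjusted p = 0.00919, 0.0243 and 0.00659).

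AC125257.2, opposite ACLY, had 2061, 2377 and 2432 TPM in resistant vehicle libraries, against 1563, 1604 and 1587 TPM in parental vehicle libraries, which did not overlap (log2 fold change 0.53 ± 0.095 (SE), limma adjusted p = 0.016). Its call was lost without parental vehicle 1, 2 or 3 or resistant vehicle c (adjusted p 0.054 to 0.0646) and under median-ratio and quantile scaling (0.0878 and 0.0774). AL391650.1 was lost without parental vehicle 1 or 2 or resistant vehicle b or c (adjusted p 0.0555 to 0.0823) and under median-ratio scaling (0.0542).

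Among the falls, AC027682.2, opposite RIPOR1, had 998, 1080.3 and 1141 TPM in resistant vehicle libraries and 3036, 2725 and 2701 TPM in parental vehicle libraries (log2 fold change -1.39 ± 0.14 (SE), limma adjusted p = 0.00105). RIPOR1 itself had 137, 133 and 146 TPM in resistant vehicle and 433, 318 and 322 TPM in parental vehicle libraries, so gene and feature both stood lower. AC007620.2, opposite the G-protein subunit gene GNB4, had 258, 300.3 and 465 TPM in resistant vehicle and 818, 886 and 907 TPM in parental vehicle libraries (log2 fold change -1.39 ± 0.2 (SE), limma adjusted p = 0.00587). Every resistant value lay below every parental one in each of these. AL356276.1, opposite the B-cell Fc-receptor-like gene FCRL3, had 270.3, 204 and 199.3 TPM in resistant vehicle and 522, 527 and 559.6 TPM in parental vehicle libraries (log2 fold change -1.27 ± 0.15 (SE), limma adjusted p = 0.00265). AC005726.3 (log2 fold change -1.27, limma adjusted p = 0.0287), AP001610.2 (-1.11, 0.00614) and AC069234.3 opposite UNC119B (-0.92, 0.00706) were lower too. The AC005726.3 call was lost without parental vehicle 1, 2 or 3 or resistant vehicle b or c (adjusted p 0.0717 to 0.0952) and under quantile scaling (0.0593).

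With decitabine in both lines, 3 features were higher and 4 lower in resistant cells, 7 of 157, beside 1.82% of all features tested in either direction, 1.2% higher and 0.623% lower. The median log2 fold change was 0.03 for the 157 and 0.08 for all features. The share called was 4.46% of the 157 and 2.67% of the other 187 features at or above 300 TPM. Median-ratio scaling gave 2 higher and 9 lower of the 157, and quantile scaling 5 higher and 9 lower. Over all 8505 features they gave 77 higher and 60 lower, and 82 higher and 65 lower. AP001610.2 had 341, 431 and 373 TPM in resistant decitabine libraries and 1421 and 1469 TPM in parental decitabine libraries (log2 fold change -1.92 ± 0.18 (SE), limma adjusted p = 0.00126). AC007620.2 averaged 257 ± 34.3 TPM in resistant decitabine (SD, n = 3) and 752 ± 30.1 TPM in parental decitabine (SD, n = 2), log2 fold change -1.55 ± 0.22 (SE), limma adjusted p = 0.0108. AC087393.2 opposite USP22, AL583722.1, AL137857.1, AL031600.3 and AL590666.5 made up the other 5. In that order they stood at -0.67, -0.68, 0.59, 0.61 and 0.85 on the log2 scale. By the position taken from its name, AL583722.1 has no exon opposite it. The calls numbered 4 without parental decitabine 1 and 2 without parental decitabine 2, and only that of AP001610.2 was kept without every library. AC007620.2 was lost without parental decitabine 1 or 2 (adjusted p = 0.0678 and 0.0605). AL031600.3 was lost without parental decitabine 1 (0.105), and AL137857.1, AL583722.1 and AC087393.2 without parental decitabine 2 (0.055, 0.0669 and 0.0929). AL590666.5 was lost without 9 of the 11 libraries, including each parental decitabine, parental vehicle and resistant decitabine library and resistant vehicle c (adjusted p 0.0666 to 0.231) and under median-ratio scaling (0.0793). All 5 features called in both comparisons of the lines kept their direction.

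Whether a feature and its opposite gene were both called was counted over the 131 pairs with both tested. In resistant decitabine against vehicle, 25 of these features and 6 genes were called, and both in 2 pairs, AC011603.3 with DDN and AP001010.1 with LDLRAD4. The pair with DDN rests on the name AC011603.3, whose identifier in the parental table belongs to another name. In resistant against parental vehicle, 30 features and 4 genes were called, and both in 3 pairs, AC027682.2 with RIPOR1, AL590133.2 with the ceramide synthase gene CERS2, and AC004542.2 with the noncoding gene TUG1. In parental decitabine against vehicle, 3 features and 1 gene were called, and no pair had both. These pairs were named after their values were seen. AC011603.3 had 47870.1, 56596 and 50153 TPM in resistant decitabine and 68761, 83609 and 90756 TPM in resistant vehicle libraries (log2 fold change -0.65 ± 0.11 (SE), limma adjusted p = 0.00986), and DDN had 4.76, 4.28 and 3.90 TPM and 16.8, 14.8 and 17.5 TPM in the same libraries. AC004542.2 had 457, 357 and 491 TPM in resistant vehicle and 238, 254 and 294 TPM in parental vehicle libraries, with TUG1 at 52.1, 45.9 and 49.8 TPM and 31.0, 34.6 and 33.2 TPM. For both features and both genes the groups did not overlap.

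Over the genes of those 11 lists themselves, mitochondrial respiration had the most calls with decitabine in either line. It was also the list with the most genes tested (90), and shares were not compared between lists by a test. These values come from the 11 libraries, where germinal-centre B-cell markers summed to 37.4 to 199.8 TPM, against 4359 TPM in replicate 3. How far they reflect the RNA of the genes themselves was not tested. In resistant decitabine against vehicle 16 of 90 tested were higher and 2 lower, beside 5.7% higher and 2.07% lower over all features, and the median log2 fold change was 0.74, beside 0.18. In parental decitabine against vehicle 11 of 90 were higher and 0 lower, beside 1.8% higher over all features, with a median of 0.67, beside 0.20. Between vehicle groups 1 was higher in resistant cells. Chromatin and histones had 8 of 51 higher in resistant decitabine against vehicle, with a median of 0.44. Cytoskeleton had 4 of 34 lower there, glycolysis 2 of 14 lower in each decitabine comparison, and the cytosolic ribosome 1 of 56 lower in each. B-cell identity (16 tested), chaperones (27), nucleotide metabolism (16), proteasome and ubiquitin (33), splicing and RNA binding (60) and translation factors (36) had at most 3 called in either direction in each comparison.

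In total 54 features were called in at least 1 of the 4 group comparisons and 103 in none of the 5 tests. The same total is not given for all features tested or for the other features of similar abundance. Whether 54 is high for features this abundant was therefore not tested, and only the calls of each single comparison, given above, can be set beside those sets. Sequence near-identity leaves 5 features uncertain, since their transcripts match a second coding gene at 95% or more over at least 100 bases. AC005062.1, opposite the pseudogene RPL21P75, matched RPL21 at 100% over 198 bases, and RPL21 was at 464.5 TPM in replicate 3 and averaged 0.223 TPM in the 11. AC112491.1 matched RPL23A at 99.3% over 151 bases. AC125611.3 matched TUBA1B and TUBA1A, AL354740.1 matched RPL35, and AP002770.1 matched RAB6D. RPL35 too was higher in replicate 3, at 2768 TPM, against 44.2 TPM in the 11. RPL23A, TUBA1B, TUBA1A and RAB6D were lower there, at 1304, 3604, 772 and 0.305 TPM, against 3860, 9132, 2498 and 1.18 TPM in the 11. In bulk RNA, fewer cells and less RNA per cell cannot be told apart for any of these changes.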

How the data were processed

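Polyadenylated RNA was measured in 12 libraries. The submitters' processing notes name HISAT2, StringTie, DESeq2 and build hg38. Which release of the annotation and which strand option they took is not given in the sources used here, nor are versions. The authors deposited one table per line, with no unit in the header, and its values were read as TPM because every library adds up to 1000000.

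Features were matched between tables by name. Of rows whose identifier in the parental table is in GENCODE 29, 50.6% carry the name of that identifier, so identifiers were not used. Names that occur once (59490) were kept. Exons on the other strand sharing at least 1 base in GENCODE 29 (GRCh38) defined opposite genes. Values were tested as log2(TPM + 1) with limma 3.58.1 (trend) in R 4.3.3, 4 group means over 11 libraries, mean of at least 1 TPM, and p adjusted by Benjamini-Hochberg with 0.05 as the threshold. On the log2(TPM + 1) scale the change of a low feature is understated. The fit was tested on simulated data. The design allowed for counts or normalised values, and the second was used.

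The features, lists and tests were chosen with earlier results of these data known, and some list results are not reported here. Features named are AC023510.1 and AC125257.2, the 10 highest, up to 6 called rises and falls per comparison, those listed at 0 in any of the 11 libraries or not lower in replicate 3, the 3 on each side of the limit, and their opposite genes. Alternatives were other filters, pseudocounts, scalings, thresholds and sets of libraries.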

Additional observations from a re-analysis of the deposited data

Results flagged for a closer look

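For 3 features the response to decitabine differed between resistant and parental cells by the limma interaction test, which is what singled them out. AL355075.3, opposite PNP, had a difference of log2 fold changes of -1.24 (adjusted p = 0.0337). AC023510.1, opposite IRAG2, had -1.04 (adjusted p = 0.0337), and AL137857.1, which GENCODE 29 does not hold, had -0.92 (adjusted p = 0.0154). Of these, the call of AL137857.1 alone was kept without each single fitted library, and that of AC023510.1 was also lost under quantile scaling (adjusted p = 0.0809). All 3 differences rest on 2 parental decitabine libraries.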

How the results depend on the processing

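Counts of called features, in the order resistant decitabine against vehicle, parental decitabine against vehicle, the difference of responses, resistant against parental vehicle and resistant against parental decitabine, were 32, 7, 3, 36 and 7. Fitting the compared groups alone gave 14, 19 and 2 for resistant decitabine against vehicle and the 2 comparisons of lines. No filter gave 18, 3, 1 and 21 for all but the last. An adjusted p under 0.01 gave 13, 3, 0, 14 and 2. Median-ratio scaling gave 14 in parental cells and 11 between lines with decitabine, and quantile scaling 14 in the second. With parental decitabine replicate 3, limma called 0 in all 5, and at most 1 passed an unadjusted p under 0.05 in any of them. Of all 12706 features in that fit, at most 4 were called higher and 2 lower in any comparison. Without single libraries the counts ran from 20 to 29, 3 to 10, 1 to 7, 15 to 34 and 2 to 9.

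The replicate block on the parental libraries called 0 of 157 features, 39 at an unadjusted p under 0.05 (limma), against 6 in the same libraries without it and 7 in the fit of all groups. With that block 0 of all 8122 features tested were called. The block leaves little to estimate the spread from, with 2 decitabine libraries, so its 0 calls do not decide whether the changes hold. Deviations of same-numbered libraries correlated at -0.0117 over 2 pairs and at -0.00346, 0.0164 and 0.0223 over 3. Over 2 pairs the deviations mirror each other and give 1 value up to its sign. The values over 3 include replicate 3, which stood apart. Whether the numbers pair the samples is therefore not settled by these correlations. No block was fitted for resistant cells, whose columns are matched to groups alone.

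Median log2 fold changes with replicate 3 were -2.96 in parental cells, 2.92 for the difference and 3.02 between lines with decitabine. Median-ratio scaling gave -0.25 in parental cells, -0.23 in resistant cells, 0.0071 for the difference, -0.071 between vehicle groups and -0.050 between decitabine groups. Quantile scaling gave -0.038 in resistant cells, 0.028 for the difference and -0.036 between vehicle groups. Over all features tested, the median of decitabine against vehicle was 0.18 in resistant and 0.20 in parental cells, 0.099 and 0.042 under median-ratio scaling, and -0.052 and -0.0076 under quantile scaling. Without single libraries the parental median ran from -0.073 to 0.010.

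Signs turned for single features with replicate 3 in the fit. In parental cells the log2 fold changes became -2.99 for AC023510.1, -1.22 for AP001610.2, -2.71 for AL137857.1, -1.90 for AC084024.3 and -1.94 for AC016727.1. Between decitabine groups they became 3.39 for AC125257.2, 1.57 for AP001610.2, 1.60 for AC007620.2, 2.57 for AL583722.1 and 2.72 for AC087393.2. For the difference they became 2.06 for AC023510.1, 2.86 for AC125257.2, 1.56 for AL355075.3 and 2.90 for AL137857.1. The parental change of AC023510.1, not called, was -0.081 under median-ratio scaling and ran from -0.011 to 0.23 without single libraries. All these features were low in replicate 3 and had been chosen for a high mean in the other 11 libraries. The direction of the turns with replicate 3 was therefore largely fixed by that choice. The cause of these and the other changes was not tested. Of 43 named calls, 24 were kept without each single fitted library. Of the same 43, 12 were lost with no filter (adjusted p 0.0516 to 0.108), 6 under median-ratio scaling, 4 under quantile scaling, and 0 with a mean of at least 5 TPM or a pseudocount of 0.1. Fitting the compared groups alone lost 14 of 40 (adjusted p 0.0697 to 0.146). Depth is unknown, which limits how far low values can be read.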
